A study of Saccharomyces cerevisiae with 13 samples.

Results

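The genes described here encode the proteins of the cytosolic ribosome in budding yeast. They were chosen by name: every gene of the array whose standard symbol starts with RPL or RPS followed by a digit, which leaves out the mitochondrial genes MRPL and MRPS. The rule found 132 of the 6140 genes measured, 76 of the large subunit and 56 of the small subunit. All 132 were measured on all 13 arrays, and none had more than 1 row in the table. They form 57 pairs of copies named A and B, 33 in the large and 24 in the small subunit, with 18 genes present as a single copy.

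The cells were W303 yeast with the SSD1-V allele, arrested in YEPD medium with alpha factor, the mating pheromone that holds MATa cells in G1, and then released into YEPD. Samples were taken from 0 to 120 min at steps of 10 min, which spans 2 cell cycles by the series' design text. Each time point was 1 sample on 1 two-colour array, with its cDNA in Cy5. The Cy3 channel of every array held cDNA of an asynchronous W303a culture, which had received no treatment and was grown overnight in YEPD; no label gives its SSD1 allele. The 13 groups are therefore the 13 times, with 1 sample each and no replicate culture.

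Ribosomal protein genes are among the most heavily transcribed genes of a growing yeast cell. The factors Rap1, Fhl1 and Ifh1 bind their promoters, and the nutrient kinases TOR and protein kinase A set their output, so that they are known for moving together when growth speeds up or slows down. Most exist as paralogues left over from an ancient duplication of the genome, and many pairs encode identical or nearly identical proteins.

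Each value is a log ratio, read as the log2 of Cy5 divided by Cy3, so that 0 means the level of the asynchronous reference. Neither the base nor the direction is stated by the labels. The direction is likely, given the dyes and the pheromone-induced genes FIG1, FUS1, PRM1 and AGA1, which stood between 3.40 and 4.53 at 0 min. The authors' values were centred near 0 on each array, so a member below 0 is low relative to the other genes of the array and not necessarily in molecules per cell. No dye swap was made, so a mean offset of the sample and a bias of the dye cannot be told apart. In bulk RNA, fewer cells with a transcript and less of it per cell cannot be told apart either. The 6 MATa markers were measured and had a median of 1.46 at 0 min, -1.63 at 40 min and 0.26 at 120 min. Of the 4 markers of alpha cells, MF(ALPHA)1, MF(ALPHA)2 and STE3 lay between -0.29 and 0.36 on every array, and SAG1, the alpha-agglutinin, stood at 0.73 at 0 min. All these marker values are ratios to the reference, so they do not give the mating type of the cells. Probe sequences were not used here, so near-identical copies may share signal.

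The ribosomal protein genes sat slightly below the reference for most of the course, and nearly all were higher at 50 min than at 40 min, with smaller steps between the other arrays. Their median read -0.24, -0.22, -0.16, -0.15 and -0.23 on the arrays from 0 to 40 min. From 50 to 120 min it read -0.06, -0.025, -0.06, -0.10, -0.08, -0.11, -0.13 and -0.085. The first 5 medians are thus all below the 8 that followed. At 0 min 126 of the 132 members lay below 0, and at 60 min 71 did, while the share of all genes below 0 was between 47.1% and 53.8% on every array. Single values ran from -0.55 to 0.46.

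**Figure D1:**
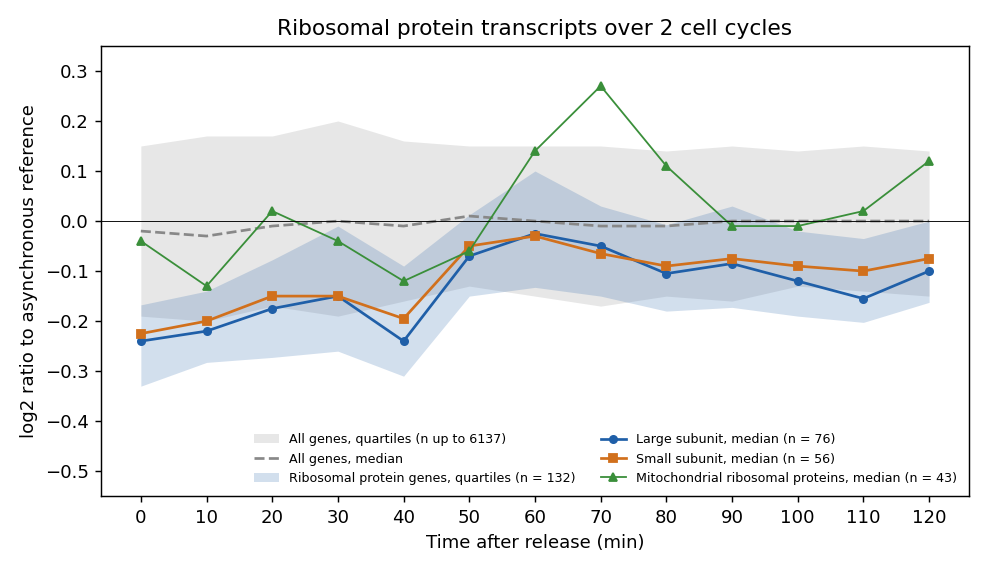
Median log2 ratio of the large and small subunit genes, of the 43 mitochondrial ribosomal protein genes and of all genes against time after release in min, 1 array per time point; the bands span the quartiles over all genes and over the 132 members. The medians of both subunits are lowest at 0, 10 and 40 min and highest at 60 min, at -0.025 for the large and -0.03 for the small subunit.

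The step from 40 to 50 min was the broadest move of the members between neighbouring arrays. In it 123 members went up, 7 went down and 2 kept their value, with a median step of 0.15, or a factor of 1.11. Of all genes 51.3% went up in that step, with a median of 0.01. RPL42B (YHR141C), a large subunit protein, made the largest step, 0.43. The 7 that went down were RPL7A at -0.43, RPL38 at -0.29, RPS16A at -0.23, RPL2B at -0.05, RPS1B at -0.02, and RPL19A and RPS9A at -0.01 each. Before it, from 30 to 40 min, 89 members went down and 40 up, with a median of -0.05. From 60 to 70 min 88 went down and 44 up, with a median of -0.06. Other broad steps were those from 10 to 20 min, with 95 up, 36 down and a median of 0.05, and from 110 to 120 min, with 93 up, 32 down and a median of 0.04. The medians of the remaining steps lay between -0.03 and 0.04. These steps rest on single arrays and carry no test.

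The position of each gene's extremes shows the same course. The lowest of its 13 values fell in the 5 arrays from 0 to 40 min for 124 members, or 93.9%, against 60.5% of all genes. The highest fell in the later 8 arrays for 125 members, or 94.7%, against 41.8% of all genes. The 60 min array alone held the highest value of 55 members, or 41.7%, against 8.74% of all genes. This split of the course was chosen after the values were seen, so these shares are a description.

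**Figure D2:**
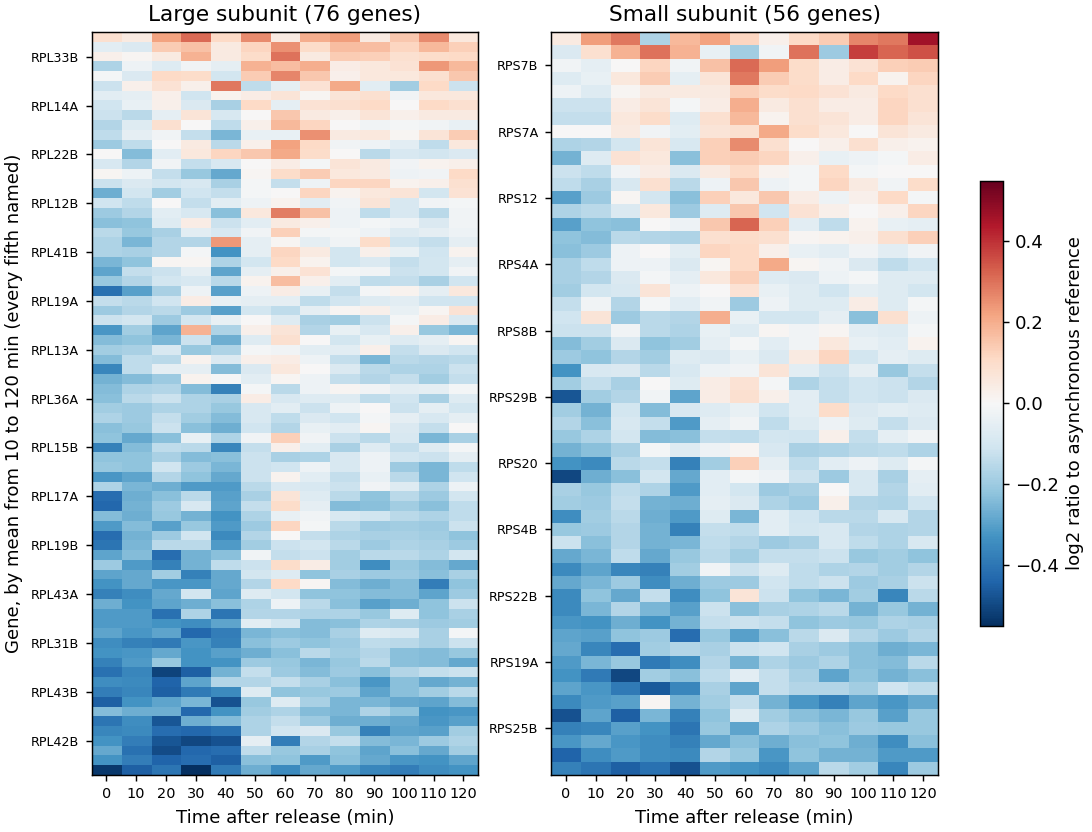
Log2 ratio of each of the 132 members (rows, by subunit and mean level) on each of the 13 arrays (columns, time after release in min), with the colour scale in log2 units. Most rows are below 0 on every array, from 126 of 132 at 0 min to 71 at 60 min, and 47 rows are below 0 on all 13 arrays.

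The arrested culture at 0 min held low values of nearly every ribosomal protein gene. The median of -0.24 was close to the -0.22 at 10 min and -0.23 at 40 min. With the mean of the 60 and 120 min arrays as the baseline, 129 of 132 members were lower at 0 min. The median difference was -0.18, which is 88.4% of the later level. Over all genes the median was -0.01 and 46.9% were higher. That baseline includes the 60 min array, which held the highest value of 55 members. No member differed by more than 0.5, a size that 6.72% of all genes passed, 3.87% above and 2.86% below the baseline. The 5 lowest were RPS29B at -0.475, RPS29A at -0.47, RPL29 at -0.46, RPS27A at -0.435 and RPL18B at -0.41. At the other end, 3 members were above 0, with RPL16B the highest at 0.035, and RPS10B at -0.025 and RPL7A at -0.035 were just below it. The same difference was below 0 for 39 of the 43 mitochondrial ribosomal protein genes, with a median of -0.15. It was below 0 for all 7 genes of stalk and ribosome-bound proteins, with a median of -0.215. Of 27 ribosome assembly genes 12 were below 0, with a median of 0.04.

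RPS29A (YLR388W) and RPS29B (YDL061C) encode a small zinc-binding protein of the small subunit head. RPS29B read -0.47, -0.19, -0.16, -0.02, -0.29, 0.04, 0.09, 0.03, -0.06, -0.13, -0.11, -0.12 and -0.08 from 0 to 120 min. RPS29A read -0.50, -0.27, -0.23, -0.10, -0.28, -0.06, -0.01, -0.03, -0.12, -0.20, -0.09, -0.18 and -0.05. Both copies were lowest at 0 min, dipped again at 40 min and were highest at 60 min. RPL29 (YFR032C-A), a single-copy gene of the large subunit, read -0.41, -0.30, -0.18, -0.03, -0.30, -0.03, 0.04, -0.04, -0.13, -0.01, 0.02, -0.05 and 0.06, with low values at 0, 10 and 40 min.

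The departure of the 0 min array from the curve of the other 12 was tested with limma, in a model that also holds linear time and a 60 min wave (cosine and sine). The p-values of this and the later tests rest on the scatter of the arrays about a fitted curve in a single culture and hold no spread between cultures, and the lone 0 min array is assumed to vary like the others. Limma called 0 of 132 members at an adjusted p under 0.05, adjusted over all 6137 genes tested, against 4.82% of all genes, 2.88% higher and 1.94% lower; 9 members had an unadjusted p under 0.05. The departure was below 0 for 99 members, with a median of -0.094 ± 0.066 (jackknife SE over arrays). The median was -0.055 without the 50 min array and -0.054 without the 60 min array. The members of smallest p were RPS29B at -0.41 ± 0.14 (SE, limma adjusted p = 0.13), RPL34A at -0.31 ± 0.11 (adjusted p = 0.14) and RPS29A at -0.35 ± 0.12 (adjusted p = 0.14). Without the 10 min array 7 members were called, all lower at 0 min: RPS29A, RPS29B, RPS27A, RPS27B, RPL18B, RPL23A and RPL34A; over all genes 12.2% were called without that array. The members' median was still -0.22 at 10 min, and the median of the 4 pheromone genes was 3.78 at 0 min and 2.015 at 10 min; their part in the result was not tested.

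Few ribosomal protein genes rose and fell with the cell cycle. Limma's F test of a 60 min cosine and sine beside a linear time term, over all 13 arrays, called 3 of 132 members periodic, or 2.27%, against 30.1% of all genes. The swing, the fitted peak-to-trough difference, had a median of 0.087 ± 0.026 (jackknife SE) on the log2 scale. That is a factor of 1.06, and over all genes the median swing was 0.21, a factor of 1.15. The highest swing of a member was 0.25, in RPL27B. The 3 that were called all belong to the large subunit; in the small subunit limma called 0 of 56, with 0 at an unadjusted p under 0.05 and a lowest adjusted p of 0.25. With an estimated correlation between neighbouring arrays limma called 0 members, against 16.7% of all genes, and 2 had an unadjusted p under 0.05. The count was also 0 without the 40 min array or without the 70 min array. It was 1 without any of the 20, 30, 60, 80, 90, 100, 110 and 120 min arrays. Without any of the 0, 10 and 50 min arrays it was 2. The share of all genes called periodic was 19.3% without the 40 min array and 21.7% without the 70 min array. Without any other single array that share was between 24.0% and 31.3%.

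**Figure D3:**
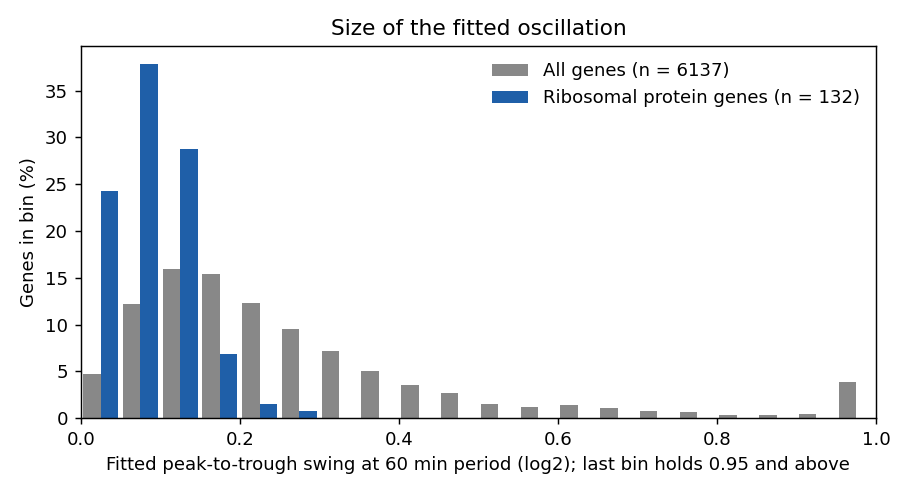
Distribution of the fitted 60 min swing (log2 units) of the 132 members beside that of all 6137 genes tested, as shares of each set. The members have a median of 0.087 and a highest value of 0.25, against a median of 0.21 over all genes.

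RPL27B (YDR471W), a copy of a large subunit protein, read 0.01, -0.03, -0.13, -0.21, -0.28, 0.01, 0.10, 0.14, 0.06, 0.05, -0.03, -0.02 and 0.11. It was low from 20 to 40 min and high at 60 and 70 min, with a much smaller dip at 100 and 110 min. Its swing was 0.25 ± 0.067 (SE), peaking at 7.2 min modulo 60 (limma adjusted p = 0.034; adjusted p = 0.098 with an estimated correlation).

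RPL25 (YOL127W), a single-copy gene whose protein sits at the exit of the nascent chain tunnel, read -0.14, -0.05, -0.02, -0.13, -0.25, -0.04, -0.04, 0.25, 0.05, 0.06, 0.01, 0.07 and 0.14. Its lowest value was at 40 min and its highest, well above its neighbours, at 70 min. The swing was 0.23 ± 0.067, peaking at 11.9 min (limma adjusted p = 0.045; adjusted p = 0.17 with an estimated correlation).

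RPL31A (YDL075W), also a protein of the tunnel exit region, read -0.12, -0.10, -0.20, -0.10, -0.04, 0, -0.07, -0.18, -0.19, -0.12, -0.01, 0.04 and -0.08. It was high at 40 and 50 min and again at 100 and 110 min, in the other phase from RPL27B and RPL25. Its swing was 0.19 ± 0.053, peaking at 47.0 min (limma adjusted p = 0.040; adjusted p = 0.13 with an estimated correlation).

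Most members had a small positive slope after release, and few passed the test. The slope does not describe a steady rise. The median of the members went from -0.23 at 40 min to -0.06 at 50 min and -0.025 at 60 min. On every later array it was below the value at 60 min. Over the 12 arrays from 10 to 120 min the slope was above 0 for 107 of 132 members, or 81.1%, against 48.2% of all genes. The median slope was 0.095 per 100 min, 6.77% on a linear scale, and its jackknife SE was 0.062. Over all genes the median slope was -0.007. Without the 10 min array the median slope of the members was 0.044. Limma called 3 rises, or 2.27% of the members, against 2.35% of all genes called higher, and 0 falls against 1.43%, from 3.78% called in all; 32 members had an unadjusted p under 0.05 in either direction. A share of 2.27% is close to that of all genes. The median slope was 0.092 in the large subunit and 0.095 in the small one. Among the 18 single-copy genes 17 slopes were above 0, with a median of 0.14, and limma called 0 of them, with 8 at an unadjusted p under 0.05.

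The called rises came from RPL40A (YIL148W), RPL40B (YKR094C) and RPL31B (YLR406C), and the first 2 encode the same protein as a fusion with ubiquitin that is cut after translation. RPL40A read -0.29, -0.32, -0.29, -0.43, -0.38, -0.25, -0.23, -0.24, -0.18, -0.07, -0.09, -0.18 and -0.01. RPL40B read -0.20, -0.16, -0.15, -0.20, -0.30, -0.10, -0.14, -0.05, 0.01, 0.03, -0.04, 0.01 and 0.08. Both were lowest at 30 or 40 min and highest at 120 min. The slope per 100 min was 0.32 ± 0.074 (SE) for RPL40A (limma adjusted p = 0.030; adjusted p = 0.28 with an estimated correlation). For RPL40B it was 0.30 ± 0.066 (adjusted p = 0.025; adjusted p = 0.29 with an estimated correlation).

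RPL31B read -0.34, -0.37, -0.39, -0.32, -0.37, -0.23, -0.20, -0.22, -0.20, -0.14, -0.15, -0.18 and -0.12. All 5 values up to 40 min lie below all 8 later ones. Its slope was 0.25 ± 0.063 (limma adjusted p = 0.047; adjusted p = 0.36 with an estimated correlation), while its copy RPL31A had a slope of -0.016. With an estimated correlation limma called 0 members, against 0.25% of all genes, and 9 members had an unadjusted p under 0.05. The count of rises was 0 without any of the 40, 80, 90, 100 and 120 min arrays and 1 without the 110 min array. It was 2 without any of the 20, 30 and 70 min arrays and 5 without the 50 min array. The share of all genes called, in either direction, fell too, from 3.78% to 1.9% without the 40 min array. That share was 1.4%, 1.2%, 2.1% and 3.1% without the 80, 90, 100 and 120 min arrays, and 2.6% without the 50 min array. Of the members with slopes below 0, those of smallest p were RPL23A at -0.15 ± 0.082 (limma adjusted p = 0.32), RPS30A at -0.14 (adjusted p = 0.41) and RPS14B at -0.11 (adjusted p = 0.45).

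The mean level over the 12 arrays from 10 to 120 min was below the reference for most members. Limma called 97 of 132, or 73.5%, against 71.5% of all genes, so the share called is close to that of all genes. The directions were uneven: 86 members, or 65.2%, were lower, against 35.6% of all genes, and 11, or 8.33%, were higher, against 35.9%. The median member stood at -0.11 ± 0.020 (jackknife SE), or 92.8% of the reference on a linear scale, and the median of all genes at -0.001. With an estimated correlation limma called 78 members, 4 of them higher, and 55.5% of all genes.

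The lowest means belonged to large subunit proteins and to RPS18A. RPL8B (YLL045C), whose protein joins the large subunit early in its assembly, read -0.53, -0.45, -0.40, -0.55, -0.39, -0.27, -0.35, -0.28, -0.31, -0.36, -0.38, -0.34 and -0.33, below 0 on every array. Its mean level was -0.37 ± 0.023 (SE, limma adjusted p = 3.3e-08). RPS18A (YDR450W), a protein of the small subunit head, had a mean of -0.33 ± 0.025, and RPL35B (YDL136W), of the tunnel exit, -0.325 ± 0.024. RPL9B (YNL067W) stood at -0.29 ± 0.026 and RPL42B at -0.28 ± 0.034.

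The highest mean level was that of RPS26A (YGL189C), whose protein lies where the mRNA leaves the small subunit. It read 0.05, 0.23, 0.29, -0.17, 0.18, 0.22, 0.12, 0.03, 0.11, 0.14, 0.27, 0.29 and 0.46, above 0 on all arrays but that of 30 min. Its mean was 0.18 ± 0.039 (SE, limma adjusted p = 9.5e-04). RPL16B (YNL069C) followed at 0.16 ± 0.030, RPS16A (YMR143W) at 0.14 ± 0.055, RPL24B (YGR148C) at 0.13 ± 0.025 and RPL33B (YOR234C) at 0.11 ± 0.026. For RPS16A limma gave an adjusted p = 0.036, but adjusted p = 0.13 with an estimated correlation. RPL16B and RPL33B were the 2 members above 0 on all 13 arrays, while 47 members were below 0 on all 13. The other called members above the reference were RPL14B, RPL23B, RPS7A, RPS7B, RPS15 and RPS21B.

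The members varied less over time than most genes. The SD over the 12 arrays after release had a median of 0.092, against 0.13 over all genes, and 79 members, or 59.8%, lay below 0.099, the lower quartile of all genes. Of the 18 single-copy genes only 5, or 27.8%, lay below that quartile, though 15 lay below the median of all genes. The largest SDs were 0.21 for RPS16A, 0.16 for RPS26A and 0.16 for RPS27A. RPS16A, a protein of the small subunit head that reaches toward the decoding site, read -0.08, 0.09, 0.19, 0.30, 0.19, -0.04, -0.19, -0.02, 0.30, -0.20, 0.38, 0.32 and 0.35. Its values jumped by 0.50 or more between single neighbouring arrays, from 80 to 90 min down and from 90 to 100 min up. RPS27A, of a zinc-binding small subunit protein, read -0.30, -0.22, -0.23, 0, -0.03, 0.15, 0.32, 0.13, -0.06, -0.14, 0.02, -0.04 and -0.05, with a single crest at 60 min.

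Most members followed the course of the others. The correlation of a member with the mean of all other members over the 13 arrays had a median of 0.72 and was above 0.5 for 113 members; the points share the arrays and the reference, so it is a description. It was highest for RPL21A at 0.92 and RPS25A at 0.92. It was lowest for RPL7A at -0.26 and RPS16A at -0.17, the 2 members below 0. RPL7A read -0.12, 0.03, 0.08, 0.03, 0.29, -0.14, -0.05, 0.08, 0.21, -0.06, -0.19, 0.11 and -0.12, and was highest at 40 min, where the median member was low.

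The subunits differed little. On the arrays of 0, 40, 60 and 120 min the large subunit had medians of -0.24, -0.24, -0.025 and -0.10, and the small subunit -0.225, -0.195, -0.03 and -0.075. The median of the large subunit was below that of the small one on 10 of 13 arrays, with differences from -0.055 to 0.015, with no test. From 40 to 50 min 71 of 76 large subunit genes and 52 of 56 small subunit genes went up. Over the 12 arrays the mean level was called for 73.7% of large and 73.2% of small subunit genes, against 71.5% of all genes. It was lower for 51 of 76 large and 35 of 56 small subunit genes, against 35.6% of all genes. It was higher for 5 and 6, against 35.9%.

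The 2 copies of a pair differed in their mean log ratio by a median of 0.135 over the 57 pairs, against 0.11 for 2 members that are not a pair. A log ratio is relative to the reference for each copy alone, so these differences say nothing of which copy was more abundant, and a dye bias of single probes cannot be told apart from them. Copy A was the higher in 28 pairs and copy B in 29. In 24 pairs 1 copy was above the other on all 12 arrays after release, copy A in 10 and copy B in 14. In 22 pairs the mean difference was smaller than its own SD over arrays, and in 11 it was larger than 0.2.

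The largest difference of a pair was in RPS26. RPS26B (YER131W) read -0.48, -0.29, -0.45, -0.25, -0.37, -0.22, -0.07, -0.19, -0.23, -0.25, -0.21, -0.30 and -0.21, below 0 on every array and below RPS26A on every array. A minus B was 0.43 ± 0.20 (SD over 12 arrays). RPS16 was next at 0.42 ± 0.23: RPS16B (YDL083C) stayed between -0.37 and -0.22 on all arrays, while RPS16A ranged from -0.20 to 0.38.

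In the next 3 pairs by size of difference copy B was the higher on every array. RPL16A (YIL133C) read -0.41, -0.36, -0.51, -0.45, -0.26, -0.13, -0.20, -0.24, -0.20, -0.23, -0.16, -0.13 and -0.12. RPL16B read 0.09, 0.05, 0.22, 0.31, 0.11, 0.26, 0.05, 0.20, 0.23, 0.05, 0.15, 0.26 and 0.06. Copy A moved up after 30 min and copy B had no such course; A minus B was -0.41 ± 0.17 (SD). RPS18 had a difference of -0.33 ± 0.086, and RPS28, whose copy B is known to control its own mRNA, of -0.30 ± 0.090.

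**Figure D4:**
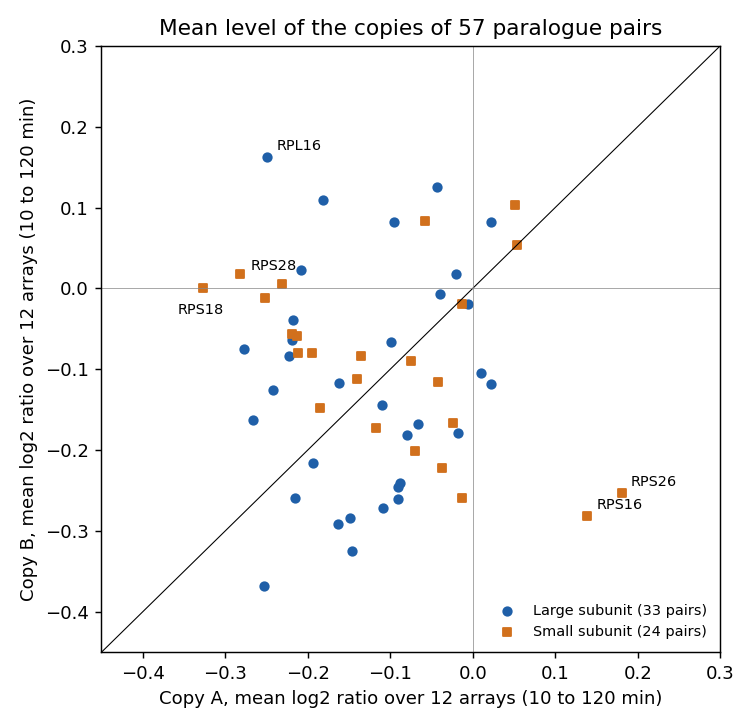
Mean log2 ratio of copy B against that of copy A over the 12 arrays from 10 to 120 min, 1 point for each of the 57 pairs, with the line of equal values. RPS26 and RPS16 lie farthest on the side of copy A, with differences of 0.43 and 0.42, and RPL16 farthest on that of copy B, at -0.41.

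Most pairs moved in parallel, though hardly more than other members did. The correlation of A and B over 13 arrays was above 0 in 49 pairs and above 0.5 in 33, with a median of 0.53; for the 8589 combinations of members that are not a pair it was 0.50. With the median member of each array subtracted, the medians were 0.17 for the pairs and -0.003 for the others. It was among the highest in RPS29 at 0.96 and RPL13 at 0.91. RPL13A (YDL082W) stayed above RPL13B (YMR142C) on all 12 arrays after release, by 0.155 ± 0.031 (SD), while the copies moved in parallel. Signal shared between near-identical copies was not tested. RPS27 and RPL27 had mean differences near 0, at 0.007 ± 0.098 and 0.013 ± 0.12 (SD).

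The copies of 8 pairs had a correlation of 0 or less. It was among the lowest in RPS24 at -0.30 and RPS16 at -0.30. RPS24A (YER074W) read -0.19, -0.10, -0.09, 0.07, -0.03, 0, 0.08, -0.04, -0.07, -0.11, -0.05, -0.07 and -0.10, with its high values at 30 and 60 min. RPS24B (YIL069C) read -0.21, -0.17, -0.10, -0.24, -0.23, -0.13, -0.14, -0.10, -0.11, 0.03, -0.13, -0.05 and -0.02, and was lowest at 30 and 40 min. Of the pairs with a gene called periodic or rising, RPL40A and RPL40B had an r of 0.89, RPL27A and RPL27B of 0.43, and RPL31A and RPL31B of 0.28.

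**Figure D5:**
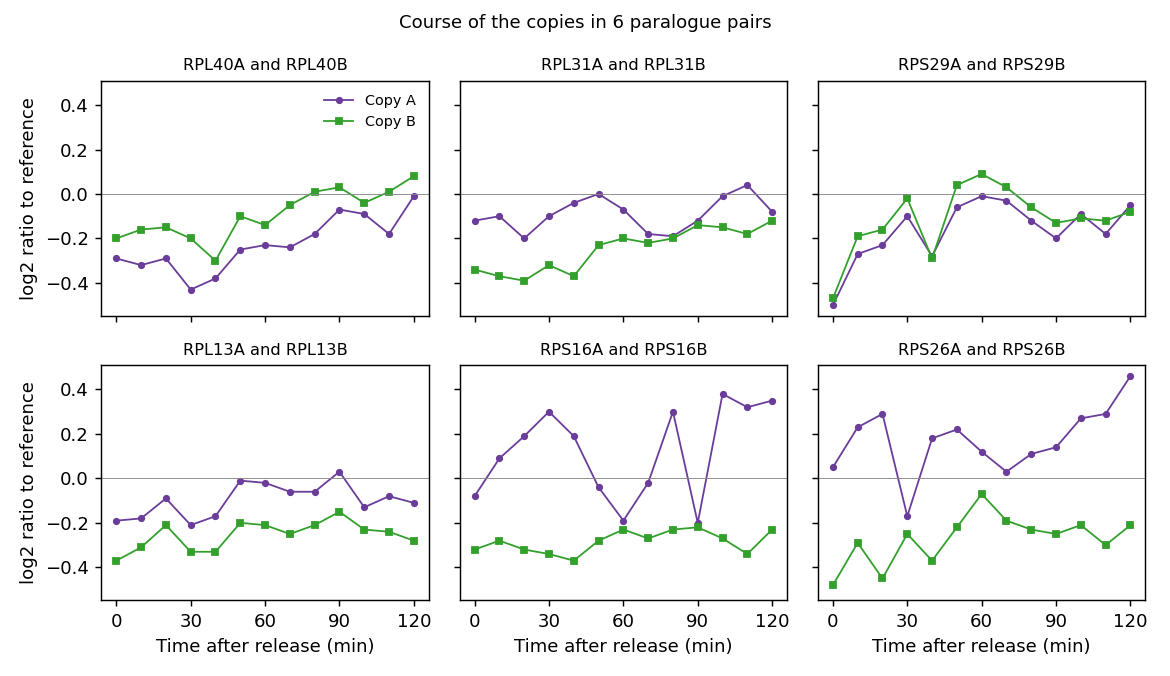
Log2 ratio of copies A and B against time after release in min for selected pairs, 1 array per point. The RPL40 copies run in parallel with copy B higher on all arrays, while RPS16A varies between -0.20 and 0.38 above a nearly flat RPS16B.

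Genes that act with the ribosomal proteins were taken from lists written from general knowledge. Of the 7 stalk and ribosome-bound proteins, which recruit translation factors or sit on the ribosome, limma called 0 periodic and 0 drifting. The shares of all genes were 30.1% and 3.78%, and 0 and 3 of the 7 had an unadjusted p under 0.05. A set of 7 genes is too small to compare with these shares. All 7 slopes were above 0, with a median of 0.14 per 100 min. From 40 to 50 min 6 of the 7 went up, with a median step of 0.10, much as the members did. In mean level 3 were called lower and 2 higher, against 35.6% and 35.9% of all genes. The lower ones were RPP0, the base of the stalk, at -0.27 ± 0.022 (SE), RPP1B at -0.21 and RPP1A at -0.083. The higher ones were RPP2A at 0.14 and RPP2B at 0.11.

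Several regulators of these genes rose and fell with the cycle. Of 18 genes for factors and kinases that act on ribosomal protein genes, limma called 11 periodic, against 30.1% of all genes, and 5 with an estimated correlation, against 16.7%. FHL1, the forkhead factor of their promoters, had a swing of 0.53 ± 0.082 (SE), peaking at 36.0 min (limma adjusted p = 0.0016; adjusted p = 0.0058 with an estimated correlation). RAP1 had a swing of 0.48 ± 0.096, peaking at 34.9 min (limma adjusted p = 0.0073; adjusted p = 0.023 with an estimated correlation). IFH1, the coactivator bound by Fhl1, had a swing of 0.49 ± 0.11 (limma adjusted p = 0.017; adjusted p = 0.065 with an estimated correlation). In mean level 8 regulators were called lower and 4 higher, against 35.6% and 35.9% of all genes. TOD6, a repressor of ribosome biogenesis genes, stood at -0.54 ± 0.037 and IFH1 at -0.36 ± 0.036. From 40 to 50 min 5 of the 18 went up, with a median step of -0.115.

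Among 32 translation factors, with a median SD of 0.089, limma called 1 periodic, against 30.1% of all genes. That was SUI2, the alpha subunit of initiation factor eIF2, with a swing of 0.32 ± 0.061 (SE, limma adjusted p = 0.0060). Limma called 0 of them drifting, against 3.78% of all genes, with 4 at an unadjusted p under 0.05. Their mean level was called lower for 21, such as TIF1, an eIF4A gene, at -0.38 ± 0.023 and the cap-binding protein CDC33 at -0.31 ± 0.022, and higher for 3, against 35.6% and 35.9% of all genes. From 40 to 50 min 18 of the 32 went up, with a median step of 0.07.

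Of 17 chaperones of ribosomal proteins and nascent chains, limma called 5 periodic, or 29.4%, against 30.1% of all genes, and 1 with an estimated correlation, against 16.7%. SYO1, which carries Rpl5 and Rpl11 into the nucleus, had a swing of 0.55 ± 0.080 (SE), peaking at 38.1 min (limma adjusted p = 0.0012). YAR1, the chaperone of Rps3, was the 1 called to drift, at -0.39 ± 0.092 per 100 min (limma adjusted p = 0.033; adjusted p = 0.35 with an estimated correlation). That is 5.88% of the 17, against 3.78% of all genes. The mean level was called lower for 10 and higher for 1, against 35.6% and 35.9% of all genes.

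Most ribosome assembly genes had slopes below 0 and went down from 40 to 50 min. Of 27, 26 had slopes below 0, with a median of -0.21 per 100 min. Limma called 0 slopes, against 3.78% of all genes, with 16 at an unadjusted p under 0.05. From 40 to 50 min 7 of 27 went up, with a median step of -0.05. Limma called 11 periodic, or 40.7%, against 30.1% of all genes, and 8 with an estimated correlation, against 16.7%. ERB1, of large subunit assembly, had a swing of 0.38 ± 0.062 (SE), peaking at 37.2 min (limma adjusted p = 0.0024). NMD3, the export adaptor of the large subunit, had 0.49 ± 0.081, peaking at 38.9 min (adjusted p = 0.0027). In mean level 24 were lower and 1 higher, against 35.6% and 35.9% of all genes, and the nucleolar protein NSR1 was lowest at -0.76 ± 0.030.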

How the data were processed

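The deposited table holds 1 log2 ratio per open reading frame and array, with the base taken as 2; per the labels the time point was in Cy5 and the asynchronous reference in Cy3. No label or header names the scanner, the background correction or the normalization. Of 6295 rows 108 were empty; 5768 were named by locus tag and 49 by synonym from the RefSeq gene table of assembly R64, 458 kept their open reading frame name, and 20 without a readable name were left out. Rows of 1 gene were averaged, and values were otherwise used as deposited.

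The members and lists were chosen with earlier results of these data known. Fits used limma 3.58.1 in R 4.3.3 on the 6137 genes measured on at least 10 arrays, with Benjamini-Hochberg adjustment over all of them and a threshold of 0.05. The fits were tested on simulated data with independent noise on each array. That test does not cover a correlation between neighbouring arrays. The periodic and 0 min fits used 13 arrays, the slope and mean level 12. The estimated correlation was a first-order autoregressive term over all genes, 0.34 for periodicity and 0.32 for the others. Other alternatives were median centring, quantile and median absolute deviation scaling, genes with 1 row, other periods, other covariates and each array left out. A mean difference of copies is given with its SD over arrays. Genes were named by rank: the smallest p among called genes, the extreme means and differences, the most and least alike pairs, and the largest SDs. Genes that fell from 40 to 50 min, RPL7A, RPL21A, RPS25A and the RPL31 and RPL40 pairs were singled out after their values were seen. Figures used matplotlib 3.10.9 in Python 3.11.15. Some genes that this rule picks are not reported here.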

Additional observations from a re-analysis of the deposited data

How the results depend on the processing

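Counts of called members depended on the noise model and the period. Limma called 3 members periodic with the settings used, 0 with an estimated correlation, 0 at a period of 55 min and 1 with no linear time term. The shares of all genes called were 30.1%, 16.7%, 15.5% and 26.0%. Leaving out single arrays gave 0 to 2 members, and 19.3% to 31.3% of all genes. The 3 called rises became 0 with an estimated correlation, 0 at 55 min and 0 with no cosine and sine. There 0.25%, 1.47% and 0.72% of all genes were called in either direction, against 3.78% with the settings used. The rises became 6 at 63 min, 7 at 65 min and 6 over all 13 arrays, where 5.65%, 6.09% and 2.84% of all genes were called. Single arrays left out gave 0 to 5 rises, and 1.2% to 8.5% of all genes. At 0 min 0 were called, 2 with no linear time term, both lower, and 0 to 7 with single arrays left out. The shares of all genes called were 4.82%, 4.90% and 2.8% to 12.2%. For the mean level single arrays left out gave 90 to 100 members called, 8 to 12 higher and 81 to 91 lower. An estimated correlation left 4 higher in place of 11. Of all genes 67.8% to 71.4% were called with single arrays left out, and 55.5% with an estimated correlation. No result reversed under the alternatives run. The median member ranged over single arrays from 0.073 to 0.10 in swing, 0.044 to 0.12 in slope, -0.13 to -0.054 at 0 min and -0.12 to -0.096 in mean level. Over all genes, 1021 in place of 1847 were periodic with an estimated correlation, 15 in place of 232 drifted, and 3398 in place of 4386 differed from the reference. The cause of these changes was not tested. The number of arrays limits the precision, and no signal over background was used here. No paired analysis was possible because each time point has 1 array.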

Other observations

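The mitochondrial ribosomal proteins, the 43 measured genes named MRPL or MRPS, had a median SD of 0.15 over the 12 arrays after release. Limma called 13 of them periodic, or 30.2%, against 30.1% of all genes, and 5 with an estimated correlation, against 16.7%. MRPS16 had the smallest p, with a swing of 0.42 ± 0.064 (SE) peaking at 15.5 min (limma adjusted p = 0.0014; adjusted p = 0.0094 with an estimated correlation). All 43 slopes over 10 to 120 min were above 0, with a median of 0.22 per 100 min. Limma called 5 rises, or 11.6%, against 2.35% of all genes, in MRPS8, MRPS9, MRPL3, MRPL31 and MRPS35, and with an estimated correlation it called 0, with 20 at an unadjusted p under 0.05. MRPL31 had the largest of the 5, at 0.46 ± 0.10 (SE, limma adjusted p = 0.025; adjusted p = 0.26 with an estimated correlation). The mean level was called higher for 18 and lower for 12, against 35.9% and 35.6% of all genes, and from 40 to 50 min 28 of 43 went up. Whether these genes differ from the cytosolic ones was not tested.

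In 8 places on the chromosomes 2 cytosolic ribosomal protein genes are direct neighbours in the RefSeq gene table of assembly R64. Their correlation over 13 arrays was highest for RPS22A and RPL39 at 0.76 and for RPS19B and RPL18B at 0.73. It was 0.64 for RPS16B and RPL13A and -0.23 for RPL13B and RPS16A, which hold the other copies of the same 2 pairs. The lowest values were that one and 0.04 for RPS14B and RPS22A. For 2 members that are not a pair of copies the median correlation was 0.50, with quartiles of 0.27 and 0.66. RPS16A had a correlation of -0.17 with the mean of all other members. Whether neighbours are more alike than other members was not tested.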
